A study of Mus musculus with 12 samples.

Results

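The serpins examined here are the genes whose symbol begins with Serpin, 44 of the 21490 gene symbols measured by Nascent-Seq in mouse liver. Nascent-Seq sequences RNA that is still bound to chromatin and so reports transcription rather than the store of mature mRNA. All libraries came from livers of wild-type C57BL/6 males, adults of 3 to 6 months, held for at least 2 weeks under 12 hr of light and 12 hr of darkness. Samples were taken at ZT0, ZT4, ZT8, ZT12, ZT16 and ZT20 (zeitgeber time, in hr from lights on), with 2 replicates at each of the 6 time points, and no time point served as a control. The number of livers behind a library was not given in the sources used here, so the tests measure the spread between these 12 libraries.

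Serpins are a family of proteins that share 1 fold with an exposed reactive centre loop. Inhibitory members present this loop to a protease as bait, are cleaved, and trap the protease in a covalent complex. Hepatocytes secrete many clade A members, antithrombin and the other coagulation and complement serpins into plasma. Some members have lost inhibition and carry hormones, and clade B members mostly stay inside the cell.

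Signal is given in reads per base pair (rpbp), the read coverage over the exons of a gene divided by exon length and scaled by the authors to the same number of uniquely mapped reads in each library. It was counted without regard to strand. The sum over all symbols ranged from 118342 to 160545 rpbp per library. ZT16 replicate 2 had the fewest symbols above 6 rpbp, 3390 against 3847 to 4510 in the others, and the lowest median deviation of tested genes, -0.20 on the log2 scale against -0.09 to 0.13. Both libraries at ZT8 and at ZT20 were run in 2 lanes and the others in 1, so lanes cannot be told apart from these time points. All 8 hepatocyte markers examined were above 6 rpbp in every library, and their summed signal was 939 to 2133 rpbp per library. The sums were 14.7 to 49.7 rpbp for 5 Kupffer cell or macrophage markers, 9.40 to 13.6 for 5 stellate cell markers, 13.6 to 27.7 for 5 endothelial markers, 2.50 to 8.0 for 3 lymphocyte markers and 0.800 to 2.20 for 3 cholangiocyte markers. The neutrophil markers S100a8 and S100a9 and the pancreatic marker Cpa1 did not exceed 0.2 rpbp. In whole tissue, fewer cells of a type and less RNA per cell cannot be told apart.

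A serpin was profiled over time if it was above 6 rpbp in at least 1 library, which 18 of 44 members were, against 29.2% of all symbols. Chromosome 12, where most clade A genes lie in 1 cluster, held 21 members, 12 of them above the threshold. Of the 18, 11 were above 6 rpbp in all 12 libraries, while Serpina7 passed through 1 library, Serpina11 through 3 and Serpina12 through 5. The share of all symbols above 6 rpbp in all 12 libraries is not given here. Just inside the threshold were Serpina7 (highest value 7.1 rpbp) and Serpina11 (8.6 rpbp), and just outside it were Serpina1a (5.9 rpbp) and Serpine2 (5.5 rpbp). Another 2 members, Serpinb5 and Serpinb12, were listed at 0 in every library.

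Serpina3k, a member of the antichymotrypsin branch, had the highest mean signal of the family, 143 ± 161 rpbp (SD, n = 12). Serpina4-ps1, annotated as a pseudogene, followed at 93.1 ± 98.5 rpbp. Serpinc1, which encodes antithrombin, had 72.4 ± 19.1 rpbp and Serpina3m had 66.4 ± 55.3 rpbp. The SDs of Serpina3k and Serpina4-ps1 exceeded their means. These SDs include differences between time points and leave out that the genes were measured in the same libraries. They therefore cannot decide the order of these 4 genes, which was not tested. Below them came Serpina10 (45.4 ± 32.3 rpbp), Serpina1e (43.0 ± 36.7 rpbp), Serping1 (29.5 ± 5.84 rpbp), Serpinf2 (26.0 ± 7.63 rpbp) and Serpind1 (20.2 ± 4.82 rpbp). The median of the mean signal was 19.7 rpbp over the 18 members and 7.62 rpbp over the 6284 tested genes.

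**Figure D1:**
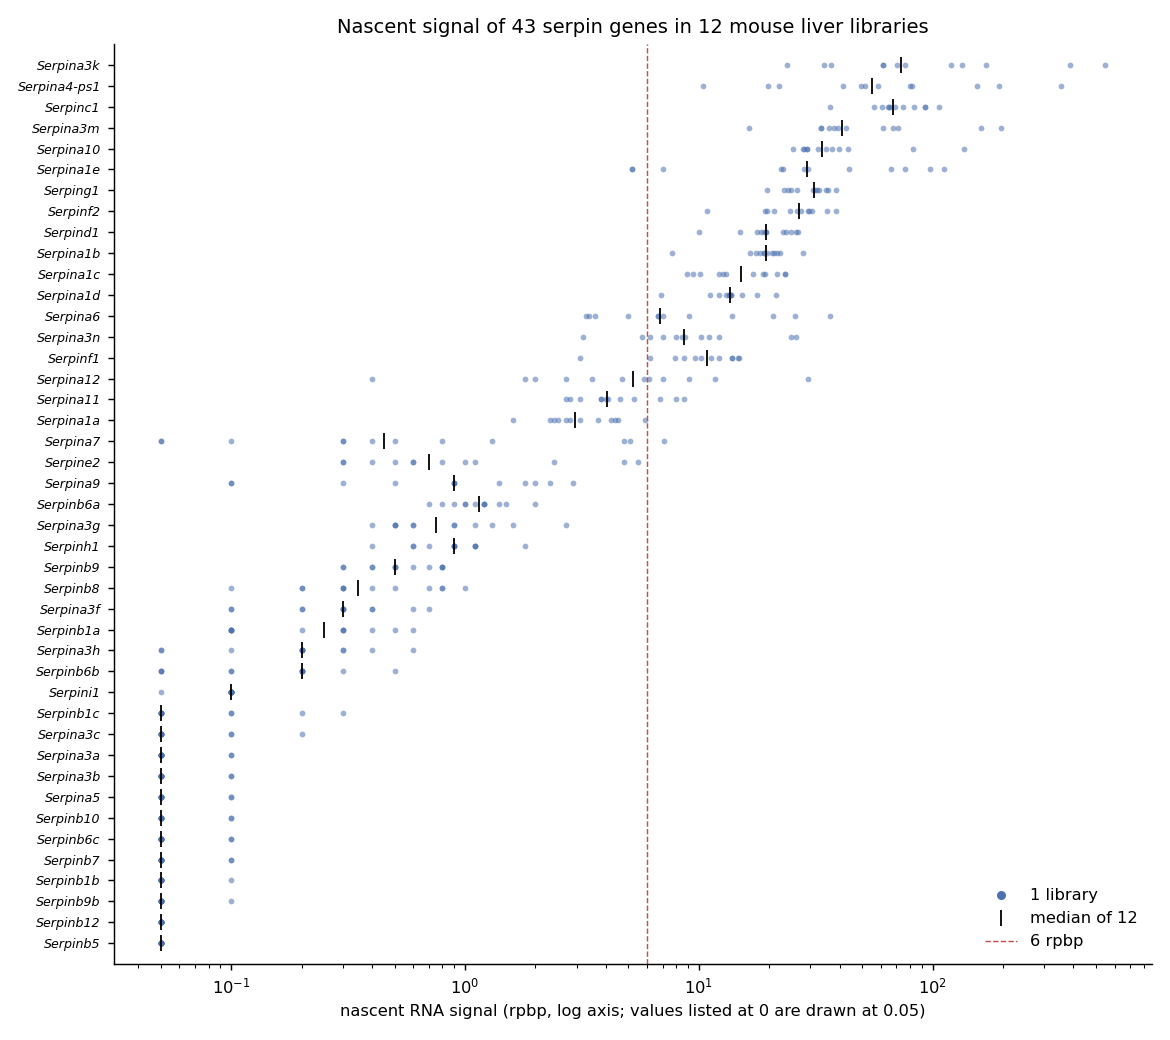
Signal of 43 of the 44 serpin genes (rows, ordered by mean) in rpbp on a log axis, with 1 point per library, a tick at the median of 12 and a dashed line at 6 rpbp. Serpina3k spans 23.8 to 547.1 rpbp, and no clade B gene exceeds 2.0 rpbp.

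The Serpina1 and Serpina3 genes were grouped as plasma inhibitors of elastase and chymotrypsin-like proteases, and the target of each gene was not examined. By role, 7 of these 14 genes passed the threshold. So did 4 of 7 coagulation and fibrinolysis inhibitors, both hormone carriers and the complement inhibitor Serping1. Apart from the hormone carriers, 1 of 2 members grouped as lacking protease inhibition passed, and 3 of 4 other clade A genes did. None of the 13 intracellular clade B genes passed, and neither did the neuroserpin gene Serpini1.

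To ask which serpins are transcribed with a daily rhythm, F24 was computed, the share of the variance over the 12 values that lies in a 24-hr cosine. The study's limits for a rhythm were applied, an F24 above 0.45, a permutation p below 0.05 without adjustment and a highest library more than 1.5-fold above the lowest. By these criteria 3 of the 18 members were rhythmic, Serpina6, Serpina1e and Serpina3n, beside 15.2% of the tested genes. Strong rhythms (F24 above 0.6, with the extreme libraries more than 1.75-fold apart) were called for Serpina6 and Serpina1e, beside 6.38% of tested genes. The members peaked at different times, Serpina6 in mid light and the other 2 in the early dark. After Benjamini-Hochberg adjustment over all tested genes 0 of the 18 had a permutation p under 0.05, beside 0.621% of tested genes, while 4 had an unadjusted p under 0.05, beside 16.4% of tested genes. The cosine terms fitted in limma called 1 member, Serpina6 (adjusted p = 0.0333), beside 2.72%. The median F24 was 0.284 over the 18 members and 0.222 over all tested genes.

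A moderated F-test in limma, on log2(rpbp + 1), then asked whether any time point differed from the rest. It called 5 members, Serpina6, Serpina1e, Serpina10, Serpina11 and Serpina12, at an adjusted p under 0.05, beside 8.40% of tested genes. Time points 12 hr apart were compared in the same fit, each pair sequenced in the same number of lanes. ZT0 and ZT12 differed for 1 member (Serpina12), beside 4.65% of tested genes. ZT4 and ZT16 differed for 3 (Serpina6, Serpina1e and Serpina10), beside 1.91%. ZT8 and ZT20 differed for 1 (Serpina6), beside 1.59%.

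The hormone carriers Serpina6 and Serpina7 had their highest time-point means at ZT8 and ZT0, respectively. Serpina6 (chr12:104884842-104895281, minus strand, mm9) encodes corticosteroid-binding globulin, the plasma carrier of glucocorticoids. Its signal was 3.6 and 7.0 rpbp at ZT0, 20.8 and 13.8 at ZT4, 25.8 and 36.5 at ZT8, 5.0 and 9.1 at ZT12, 3.4 and 3.3 at ZT16 and 6.7 in both libraries at ZT20. All 4 libraries of ZT4 and ZT8 lay above the other 8. The mean rose from 3.35 ± 0.0707 rpbp at ZT16 to 31.1 ± 7.57 rpbp at ZT8 (SD, n = 2), a ratio of 9.30. F24 was 0.626 with a phase of 6.79 hr (permutation p = 0.00327, adjusted p = 0.110). In limma Serpina6 had an adjusted F-test p of 0.00484, the lowest of the family. It was higher at ZT4 than at ZT16 by 2.05 ± 0.32 (log2, SE, adjusted p = 0.0135) and higher at ZT8 than at ZT20 by 2.04 ± 0.32 (adjusted p = 0.0116), the latter between libraries that were all run in 2 lanes. The call of a rhythm and that of the F-test held in each of the 12 fits without 1 library, where F24 ran from 0.561 to 0.705. The contrast of ZT4 and ZT16 lost its call without ZT4 replicate 1 (log2 difference 1.77, adjusted p = 0.104), and that of ZT8 and ZT20 without ZT8 replicate 2 (1.80, adjusted p = 0.0853) or either ZT20 library (adjusted p = 0.0963 and 0.0749). Within 1 series of 6 libraries its F24 was 0.694 in replicate 1 (exact permutation p = 0.267) and 0.613 in replicate 2 (p = 0.050), so neither series alone passed a test whose smallest p is 0.0167.

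Serpina7 (chrX:135614695-135619756, minus strand), which encodes thyroxine-binding globulin, was low in most libraries. Its signal was 7.1 and 4.8 rpbp at ZT0 and 5.1 rpbp in ZT8 replicate 2, whereas the other 9 libraries had 1.3 rpbp or less and both ZT12 libraries were listed at 0. The ZT8 replicates stood apart, at 0.3 and 5.1 rpbp. Neither the permutation test (F24 = 0.272, p = 0.256) nor limma's F-test (adjusted p = 0.271) called it. Without ZT8 replicate 2 its F24 was 0.457, just above the limit of 0.45. Serpina7 entered the tests only through its highest value, in ZT0 replicate 1, so the value that admitted it also shaped these results. They are therefore given as description and not as support for a rhythm.

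**Figure D2:**
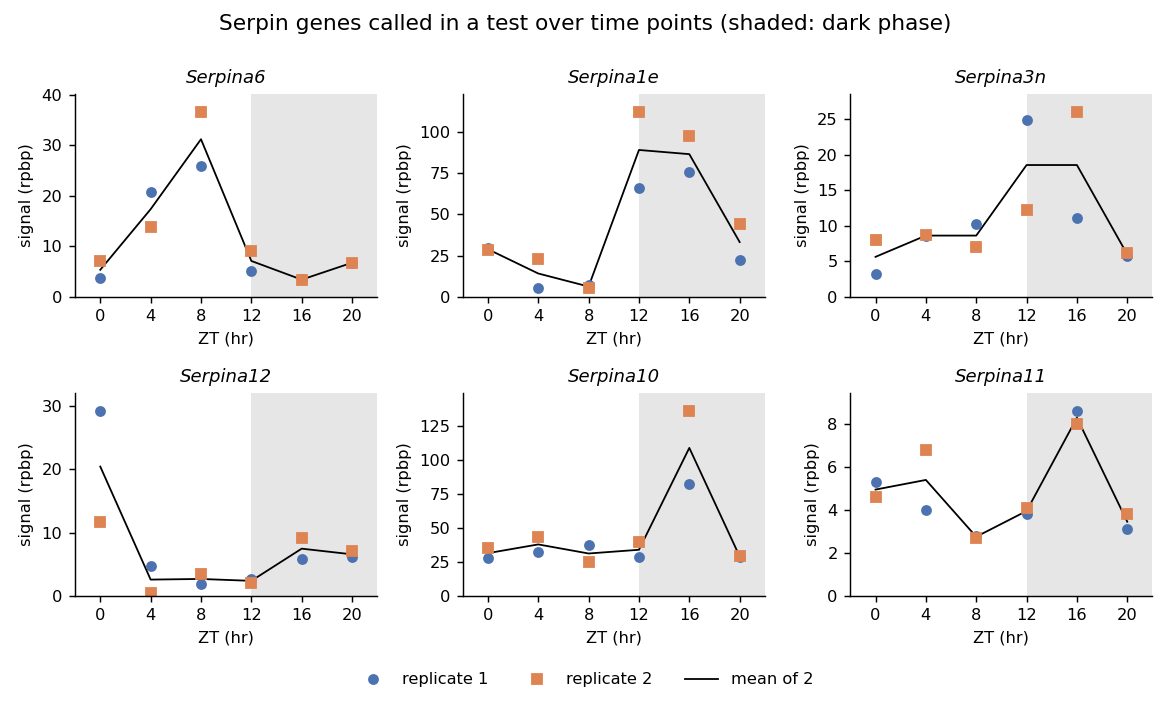
Signal (rpbp, axes from 0) against ZT in hr for the 6 serpins called rhythmic or different between time points, with both replicates and their mean, and the dark phase shaded. Serpina6 is highest at ZT8, Serpina1e at ZT12 and ZT16, Serpina12 at ZT0, and Serpina10 and Serpina11 at ZT16.

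Mice carry several copies of the alpha-1-antitrypsin gene, a plasma inhibitor of neutrophil elastase, and the table listed 5 of them, Serpina1a to Serpina1e. Their coding sequences were 1242 bases long and 96.3% to 98.5% identical to each other. The copies differed at 86 of 1242 aligned positions, and 18 of these fell within the 60 bases shown here (coding bases 1101 to 1160), which encode part of the reactive centre loop. The stretch is shown because it is where the copies differ most, and hence where their reads can be told apart. Capitals mark the positions at which the 5 copies are not all the same, and each stretch lies within 1 exon on the minus strand (mm9).
Serpina1a (chr12:105091967-105092026): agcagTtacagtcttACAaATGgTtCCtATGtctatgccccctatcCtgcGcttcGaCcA
Serpina1b (chr12:104966534-104966593): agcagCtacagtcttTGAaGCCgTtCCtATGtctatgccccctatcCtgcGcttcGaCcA
Serpina1c (chr12:105133304-105133363): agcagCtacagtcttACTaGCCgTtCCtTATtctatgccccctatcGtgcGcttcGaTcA
Serpina1d (chr12:105001972-105002031): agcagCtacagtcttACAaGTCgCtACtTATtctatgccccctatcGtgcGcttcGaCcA
Serpina1e (chr12:105185310-105185369): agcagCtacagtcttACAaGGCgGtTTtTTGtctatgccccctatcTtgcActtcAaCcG

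Only uniquely mapped reads entered the signal, so the share of each gene that a read can identify bears on its level. In the annotated exons, 80-base windows (the read length) found at 1 place in the genome made up 31.1% of Serpina1c, 44.4% of Serpina1a, 57.1% of Serpina1d, 62.9% of Serpina1b and 76.4% of Serpina1e. Outside this group the lowest shares among the 18 members were 92.4% in Serpina3m and 92.5% in Serpina3k. The signal of a Serpina1 gene divides these reads by the whole exon length, and levels between the copies were therefore not compared by a test. The intervals listed for Serpina1a, Serpina1b and Serpina1d also overlapped (that of Serpina1b reached from base 104966366 to base 105066206 of chromosome 12 and enclosed Serpina1d), so these 3 signals may share reads. The interval of Serpina1e overlapped no other member.

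Serpina1e (chr12:105185142-105195107, minus strand) was high in the early dark. Its signal was 29.4 and 28.3 rpbp at ZT0, 5.2 and 22.9 at ZT4, 7.0 and 5.2 at ZT8, 66.3 and 112.3 at ZT12, 75.8 and 97.7 at ZT16 and 22.4 and 44.0 at ZT20. The 4 libraries of ZT12 and ZT16 lay above the other 8, and the ZT4 replicates differed more, in ratio, than any other pair. The mean rose from 6.10 ± 1.27 rpbp at ZT8 to 89.3 ± 32.5 rpbp at ZT12 (SD, n = 2), a ratio of 14.6. F24 was 0.649 with a phase of 15.1 hr (permutation p = 0.010, adjusted p = 0.160), and limma's F-test gave an adjusted p of 0.00861. The signal at ZT4 was below that at ZT16 (limma, log2 difference -2.84, SE 0.54, adjusted p = 0.0278). This contrast lost its call without ZT4 replicate 1 (log2 difference -1.87, adjusted p = 0.125) or without ZT16 replicate 2 (-2.66, adjusted p = 0.0855). The call of a rhythm held in each of the 12 fits without 1 library (F24 from 0.579 to 0.731), but not in the replicate 1 series alone (F24 = 0.718, exact permutation p = 0.200) or the replicate 2 series alone (F24 = 0.713, p = 0.200).

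The other 3 copies tested had narrower ranges. Serpina1b had 19.2 ± 4.66 rpbp (SD, n = 12), Serpina1c 15.8 ± 5.38 rpbp and Serpina1d 13.8 ± 3.46 rpbp. Their time-point means spanned a ratio of 1.95 to 2.22, and all 3 were highest in ZT20 replicate 1. F24 was 0.0518, 0.104 and 0.0600, and none was called by the permutation test or by limma's F-test (adjusted p = 0.213, 0.158 and 0.211). Without ZT16 replicate 1 the F-test called Serpina1b (adjusted p = 0.0355) and Serpina1d (adjusted p = 0.0429), so these results rest on 1 library. Serpina1b was lowest in ZT16 replicate 2 at 7.7 rpbp, where Serpina1e had 97.7 rpbp. Relative to the geometric mean of Serpina1b, Serpina1c and Serpina1d, the signal of Serpina1e was 0.318 and 0.493 at ZT8 and 5.41 or more in both ZT16 libraries. Serpina1e held 9.08% of the summed signal of the 5 copies in ZT8 replicate 2 and 76.9% in ZT16 replicate 2. These ratios were chosen for their difference and carry no test.

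**Figure D3:**
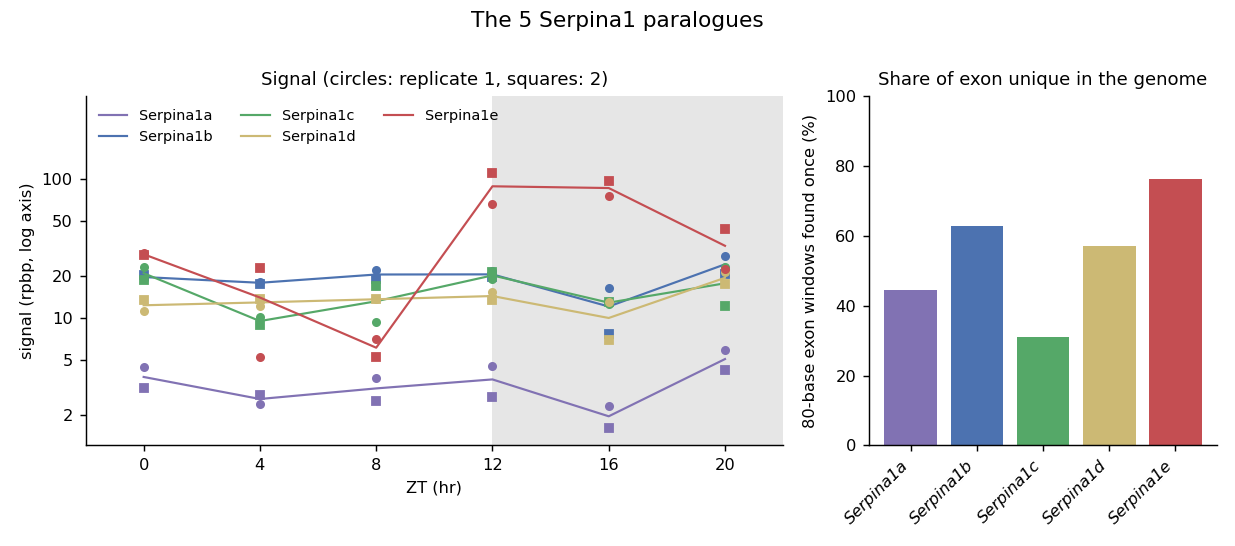
Left, signal (rpbp, log axis) against ZT in hr for the 5 Serpina1 copies, with circles for replicate 1, squares for replicate 2 and lines through the means; right, percent of 80-base exon windows found at 1 place in the genome. Serpina1e runs from 5.2 to 112.3 rpbp, whereas Serpina1b, Serpina1c and Serpina1d stay between 6.9 and 27.9 rpbp.

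The promoters of Serpina1b and Serpina1e are shown because these copies have the lowest and the highest F24 of the 4 copies tested (Serpina1a was below the threshold). RefSeq (GRCm38.p6) gives each as 250 bases before and 50 after the annotated start, on the minus strand. Where the windows align, capitals mark the bases that differ or that stand opposite a gap.
Serpina1b (chr12:103738140-103738439): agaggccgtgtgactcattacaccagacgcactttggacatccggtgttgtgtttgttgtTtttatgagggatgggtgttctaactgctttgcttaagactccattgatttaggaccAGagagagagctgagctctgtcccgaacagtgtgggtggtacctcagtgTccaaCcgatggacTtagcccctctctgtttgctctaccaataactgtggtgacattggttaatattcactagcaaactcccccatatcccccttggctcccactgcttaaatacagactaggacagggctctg
Serpina1e (chr12:103956848-103957147): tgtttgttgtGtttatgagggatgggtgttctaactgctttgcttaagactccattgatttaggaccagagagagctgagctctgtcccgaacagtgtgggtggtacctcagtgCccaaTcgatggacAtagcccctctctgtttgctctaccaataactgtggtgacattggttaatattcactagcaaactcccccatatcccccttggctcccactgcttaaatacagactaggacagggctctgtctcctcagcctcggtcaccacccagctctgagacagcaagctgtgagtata
Over the 248 aligned bases 244 were identical (98.4%). The capital AG of Serpina1b stands opposite a gap in Serpina1e and is not counted among these bases. The annotated starts are offset, so the windows do not cover the same bases at their ends. The promoters of the copies Serpina1b to Serpina1e were 91.7% to 98.4% identical over the bases that aligned. RefSeq windows were found for 12 of the 18 members (14 windows), but not for Serpina6, Serpina10, Serpina3k, Serpina3m, Serpina4-ps1 or Serping1, which were not searched. On either strand, none of the 14 held the E-box CACGTG that CLOCK:BMAL1 binds, which 7.15% of 32851 windows of this length held, or the D-box TTACGTAA of the PAR bZIP factors, which 0.119% held. The STAT motif TTCNNNGAA was found in both windows of Serpina11 and in no other member searched, beside 8.30% of all windows.

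Serpina3n (chr12:105644918-105652539, plus strand), an acute-phase member of the antichymotrypsin branch, was the third rhythmic serpin. Its signal was 3.2 and 8.0 rpbp at ZT0, 8.5 and 8.7 at ZT4, 10.2 and 7.0 at ZT8, 24.9 and 12.2 at ZT12, 11.1 and 26.0 at ZT16 and 5.7 and 6.2 at ZT20. The 4 libraries of ZT12 and ZT16 were the highest, but within each of these times 1 replicate lay close to the values of ZT4 and ZT8. F24 was 0.481 with a phase of 13.2 hr (permutation p = 0.0270, adjusted p = 0.233), and limma's F-test did not call it (adjusted p = 0.0934; 0.0292 without ZT16 replicate 1). The call of a rhythm was lost without ZT0 replicate 1 (F24 = 0.418, permutation p = 0.104), ZT4 replicate 1 (p = 0.0501), ZT12 replicate 1 (F24 = 0.384, p = 0.0646) or ZT20 replicate 2 (p = 0.0509). It was also lost once the trend of signal with exon GC content was removed (F24 = 0.443).

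Serpina3k (chr12:105576696-105583949, plus strand) and Serpina3m (chr12:105578704-105632468, plus strand) had the largest replicate ratios of the family, 7.67 and 4.88 at ZT16 with 1 rpbp added to both values. Both belong to the same branch as Serpina3n. Serpina3k had 168.5 and 61.4 rpbp at ZT0, 36.9 and 23.8 at ZT4, 34.2 and 133.6 at ZT8, 387.0 and 120.3 at ZT12, 70.5 and 547.1 at ZT16 and 61.1 and 75.9 at ZT20. Serpina3m had 61.5 and 33.4 rpbp at ZT0, 37.9 and 16.4 at ZT4, 35.9 and 70.9 at ZT8, 160.9 and 68.0 at ZT12, 39.5 and 196.6 at ZT16 and 33.4 and 42.4 at ZT20. In both genes the high libraries were ZT12 replicate 1 and ZT16 replicate 2, and the other replicate of each of these times lay within the range of the remaining libraries. Between-time differences held 43.8% of the variance of Serpina3k and 46.7% of that of Serpina3m, against a median of 63.3% over tested genes. Neither gene was called by the permutation test (F24 = 0.313 and 0.371) or by limma's F-test (adjusted p = 0.223 and 0.260). Without ZT16 replicate 1 both were called rhythmic (F24 = 0.464 and 0.531) and different between time points (adjusted p = 0.0419 and 0.0462), so these results rest on 1 library. The ratio of Serpina3m to Serpina3k was 0.359 to 1.05. The listed interval of Serpina3m began inside Serpina3k, with 5246 shared bases, so the signals may share reads.

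Serpina4-ps1 (chr12:105316174-105325130, plus strand) was high in both ZT16 libraries, at 193.1 and 353.6 rpbp. It had 155.5 and 58.1 rpbp at ZT0, 19.8 and 51.4 at ZT4, 10.4 and 49.6 at ZT8, 41.5 and 80.4 at ZT12 and 22.1 and 81.3 at ZT20. The ZT16 libraries lay above the other 10, although its replicates were more than 1.5-fold apart at all 6 times. It was not called (F24 = 0.339, permutation p = 0.126, limma adjusted F-test p = 0.0934), but without ZT20 replicate 1 it was called rhythmic (F24 = 0.510, permutation p = 0.0228).

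Among the coagulation and fibrinolysis inhibitors, Serpina10 (chr12:104854885-104869615, minus strand) was the member called. It encodes the protein Z-dependent inhibitor of factor Xa. The signal was 82.1 and 136.1 rpbp at ZT16 and 25.2 to 43.3 rpbp in the other 10 libraries, with no overlap. The time-point means were 29.0 ± 0.141 rpbp at ZT20 and 109 ± 38.2 rpbp at ZT16 (SD, n = 2). F24 was 0.296 (permutation p = 0.179), and limma's F-test gave an adjusted p of 0.0276. The signal was lower at ZT4 than at ZT16 (log2 difference -1.47, SE 0.33, adjusted p = 0.0467). The F-test call was lost in 5 of the 12 fits without 1 library, with an adjusted p of 0.114 without ZT16 replicate 2 and 0.0511 to 0.0578 in the other 4. The contrast of ZT4 and ZT16 lost its call in 9 of these fits.

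Serpinc1 (chr1:162908777-162933141, plus strand) had time-point means of 50.4 ± 19.9 rpbp at ZT16 to 94.8 ± 16.5 rpbp at ZT20 (SD, n = 2). Its F24 of 0.429 missed the limit (permutation p = 0.0810) and passed without ZT0 replicate 1 (F24 = 0.604, p = 0.0255). The listed interval of Serpinc1 was covered by that of Capn8 (8.16 rpbp on average), and that of Serpind1 by Pi4ka (3.85 rpbp on average), so reads of those genes could enter. Serpind1 (chr16:17331508-17343665, plus strand), which encodes the thrombin inhibitor heparin cofactor II, had time-point means of 14.2 ± 6.01 to 24.8 ± 2.62 rpbp (F24 = 0.0966). Serpinf2 (chr11:75245238-75252977, minus strand), which encodes the plasmin inhibitor alpha-2-antiplasmin, had 15.9 ± 7.21 to 29.9 ± 7.71 rpbp (F24 = 0.145). Serpinf2 was called rhythmic without ZT4 replicate 2 (F24 = 0.565) and in the replicate 1 series alone (F24 = 0.961, exact permutation p = 0.0333), but in the replicate 2 series its F24 was 0.137. Serpina5 and Serpine2, of the same group, did not exceed 5.5 rpbp.

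Serping1 (chr2:84605544-84615561, minus strand), which encodes the inhibitor of complement C1 and of the contact system, had the lowest coefficient of variation of the 18 members, 0.198 over the 12 libraries. Its time-point means ran from 23.6 ± 0.636 rpbp at ZT8 to 34.6 ± 5.59 rpbp at ZT12 (SD, n = 2). Neither test called it (F24 = 0.108, limma F-test adjusted p = 0.400). Serpinf1 (chr11:75223531-75236125, minus strand) encodes pigment epithelium-derived factor, a secreted serpin that does not inhibit proteases. Its means ran from 6.65 ± 5.02 to 13.1 ± 2.55 rpbp (F24 = 0.0594), and limma's F-test called it, of the alternatives tried, only without ZT16 replicate 1 (adjusted p = 0.0335). The collagen chaperone gene Serpinh1, the member grouped with Serpinf1, did not exceed 1.8 rpbp.

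**Figure D4:**
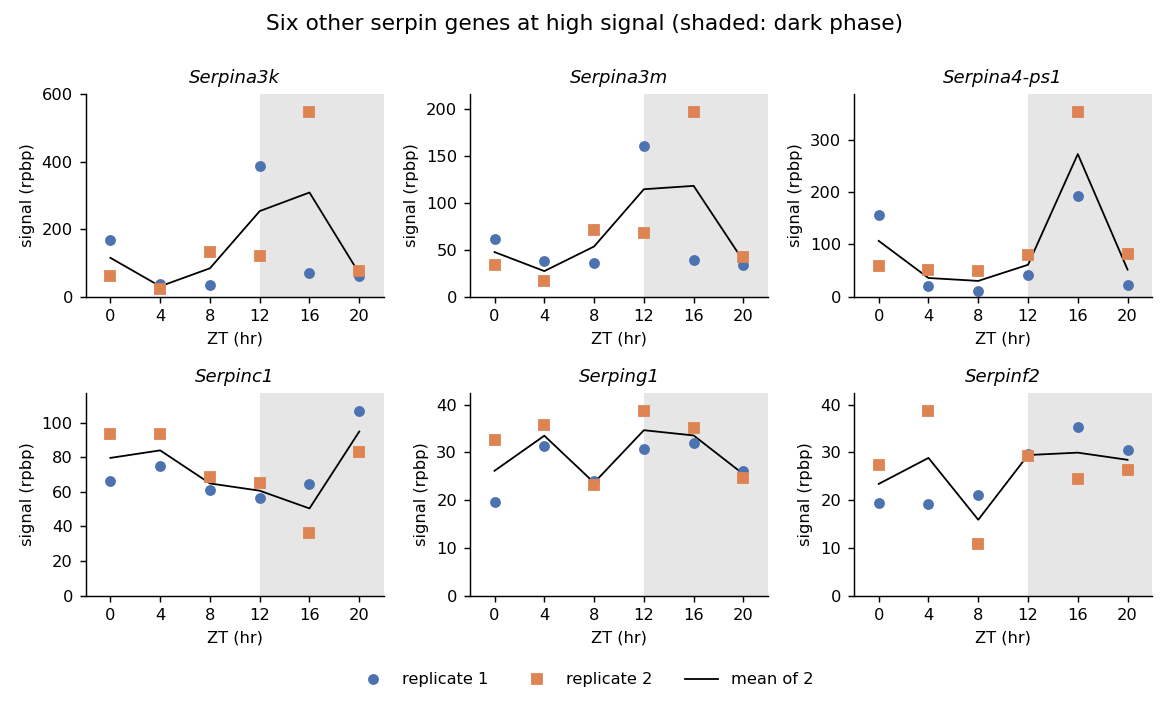
Signal (rpbp, axes from 0) against ZT in hr for 6 further serpins, with both replicates and their mean, and the dark phase shaded. Serpina3k and Serpina3m differ most between the ZT16 replicates (70.5 and 547.1 rpbp for Serpina3k), whereas Serping1 stays between 19.6 and 38.6 rpbp.

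Serpina12 and Serpina11, both of clade A, were also called by limma. Serpina12 (chr12:105266979-105282653, minus strand) encodes vaspin, an adipokine that inhibits a kallikrein. It had 29.2 and 11.7 rpbp at ZT0, 4.7 and 0.4 at ZT4, 1.8 and 3.5 at ZT8, 2.7 and 2.0 at ZT12, 5.8 and 9.1 at ZT16 and 6.1 and 7.0 at ZT20. Both ZT0 libraries lay above the other 10. The signal was higher at ZT0 than at ZT12 by 2.56 ± 0.57 (log2, SE, limma adjusted p = 0.0289). The F-test gave an adjusted p of 0.0432. The contrast was lost without ZT0 replicate 1 (log2 difference 1.93, adjusted p = 0.283) or either ZT12 library (2.71 and 2.40, adjusted p = 0.107 and 0.138), and the F-test call was lost in 8 of the 12 fits without 1 library and under every other alternative tried for it, where its adjusted p was 0.0508 to 0.159. F24 was 0.375 with a phase of 22.4 hr (permutation p = 0.0405), under the limit for a rhythm. The limit was passed on log2(rpbp + 1) (F24 = 0.481, permutation p = 0.0459) and without ZT0 replicate 1 (F24 = 0.548, permutation p = 0.0420).

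Serpina11 (chr12:105218465-105228162, minus strand) was low, with 8.6 and 8.0 rpbp at ZT16 and 2.7 to 6.8 rpbp in the other 10 libraries. Replicates agreed closely except at ZT4, where they were 4.0 and 6.8 rpbp. The mean was 8.30 ± 0.424 rpbp at ZT16 and 2.75 ± 0.0707 rpbp at ZT8 (SD, n = 2). Limma's F-test gave an adjusted p of 0.0365. This call was lost in 10 of the 12 fits without 1 library, where the adjusted p reached 0.0806, and after removal of the GC trend (0.0714).

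Replicates of the serpins were often apart, and each count is given beside that of all tested genes. At ZT16, 11 of the 18 members had replicates more than 1.5-fold apart (1 rpbp added to both), beside 24.5% of tested genes. At ZT0 the number was 9 of 18, beside 13.0%, and at ZT4 it was 7 of 18, beside 9.47%. It was 7 of 18 at ZT8 (25.1% of tested genes), 6 of 18 at ZT12 (14.0%) and 4 of 18 at ZT20 (8.91%). The median over members of the median replicate ratio was 1.40, against 1.19 over tested genes. Over the 12 libraries the coefficient of variation was above 0.5 for 9 of 18 members, beside 11.5% of tested genes, with a median of 0.535 for the members and 0.252 for all.

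Individual libraries carried several of these values at the same time. In ZT16 replicate 2, 5 members had their highest value (Serpina3k, Serpina3m, Serpina3n, Serpina4-ps1 and Serpina10), beside 4.46% of tested genes. The 44 serpins together held 1.24% of the summed signal of that library and 0.279% to 0.734% of the others. Of the 1526 rpbp of serpins there, Serpina3k had 547.1, Serpina4-ps1 353.6 and Serpina3m 196.6 rpbp. The share is therefore not a rise of the whole family, and Serpinc1, Serpind1, Serpina1b and Serpina1d were at their lowest in that library. In ZT20 replicate 1, 5 members were highest (Serpina1b, Serpina1c, Serpina1d, Serpinc1 and Serpind1), beside 5.86% of tested genes. The summed hepatocyte markers were 1082 rpbp in ZT16 replicate 2, the lowest but for ZT0 replicate 1 (939 rpbp), and 1150 rpbp in ZT16 replicate 1. They were 1820 rpbp in ZT20 replicate 1 and highest in ZT20 replicate 2 (2133 rpbp). The part of cell composition in these values was not tested.

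**Figure D5:**
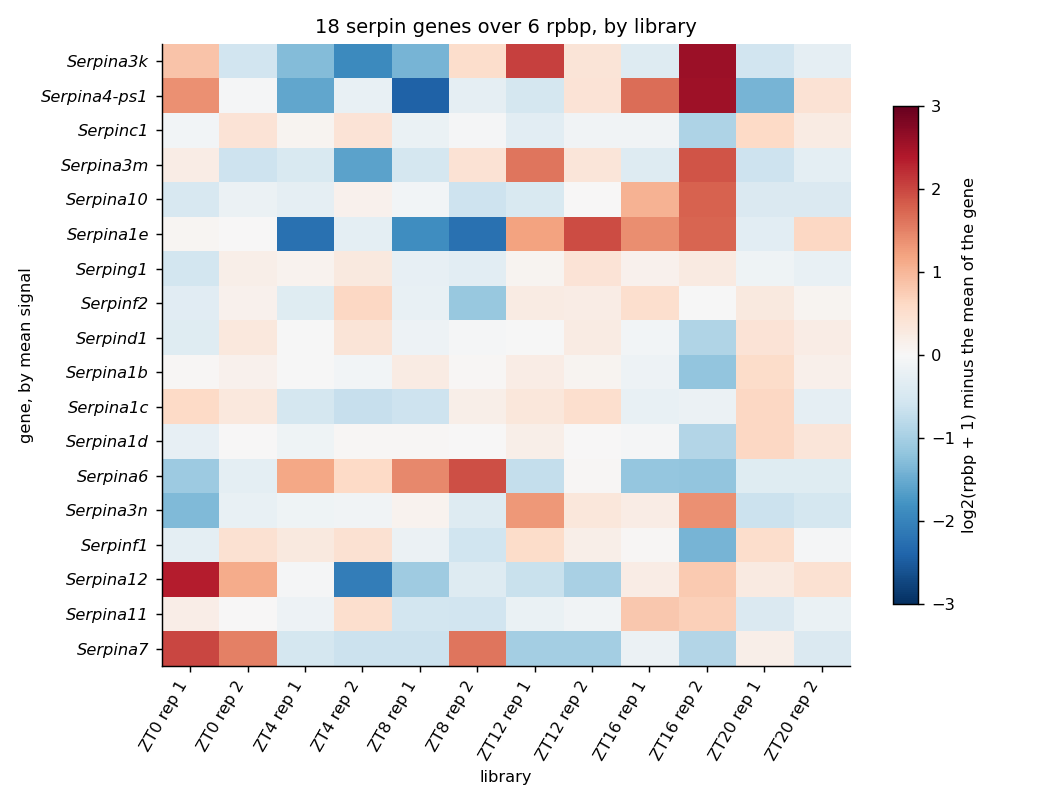
Heat map of log2(rpbp + 1) minus the mean of each gene for the 18 serpins above 6 rpbp (rows, by mean signal) in the 12 libraries (columns, by ZT). In ZT16 replicate 2 Serpina3k, Serpina4-ps1, Serpina3m and Serpina10 are above their means while Serpinc1, Serpind1, Serpina1b and Serpina1d are below theirs.

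The 26 members below the threshold were low in all 12 libraries. Serpina1a had 3.34 ± 1.22 rpbp (SD, n = 12) and the highest value among them, 5.9 rpbp. The 13 clade B genes, several of which protect cells against their own granule and lysosomal proteases, had means of 0 to 1.17 rpbp and reached 2.0 rpbp in Serpinb6a. Of these 13, 8 lie on chromosome 13 and 5 on chromosome 1. The other Serpina3 genes below the threshold did not exceed 2.7 rpbp, and Serpini1 was at 0.1 rpbp or less. In all, 18 of the 44 members stayed below 1 rpbp in every library. The share of all symbols that did so is not given here, so this count cannot be called particular to the serpins.

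Proteases and other proteins that act with these serpins were examined beside them, 17 genes of coagulation, fibrinolysis and complement together with angiotensinogen (Agt), a serpin by fold that does not bear the name. Of these, 16 were in the table and 14 were tested. Their mean signal ran from 7.65 ± 2.60 rpbp in F9 to 76.3 ± 17.0 rpbp in Plg (SD, n = 12), the gene of plasminogen, and the genes of the plasminogen activators Plat and Plau did not exceed 0.3 rpbp. None of the 14 was rhythmic (15.2% of tested genes were) and none had an unadjusted permutation p under 0.05 (16.4%), with F24 from 0.0254 to 0.376. Limma's F-test called 1 of 14, beside 8.40% of tested genes. This was Agt, which encodes the precursor of angiotensin (adjusted p = 0.0239). Agt was lower at ZT8 than at ZT20 (log2 difference -1.91, SE 0.31, adjusted p = 0.0145). Klkb1, the gene of plasma prekallikrein, was higher at ZT4 than at ZT16 by 1.49 ± 0.32 (log2, SE, adjusted p = 0.0379).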

How the data were processed

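Nascent-Seq signal of the 12 liver libraries was used. Per the study's methods and the submitters' processing notes (CASAVA 1.7, TopHat, mm9), the authors extracted chromatin-bound RNA from nuclei, removed polyadenylated RNA, and mapped the reads. They deposited the signal in rpbp over merged exons, from uniquely mapped reads without strand, scaled to equal reads and rounded to 1 decimal. Depth cannot be read from it, so no count model was fitted. The columns of F24, phase and p that the authors deposited were not used.

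Of 49409 lines, 27919 blank ones were dropped. Time points and replicates came from the labels. Tests ran on the 6284 symbols with a library above 6 rpbp: F24 on linear values with 100000 one-sided permutations per gene (smallest p 1e-05; all 720 orders within 1 series, smallest p 0.0167), and limma 3.58.1 (R 4.3.3, trend on) on log2(rpbp + 1), which understates changes of low genes, both with Benjamini-Hochberg adjustment. The limits follow the study's methods. Every member above 6 rpbp is named, and the others by group. The values of 1 member are not reported here. Members, roles, partner genes, markers and tests were chosen with earlier results of these data known. Coordinates count from 1. Symbols were matched to GENCODE M1 on the same build (43 of 44 members), whose exons need not be those the authors merged. Sequences were read from that genome or RefSeq and aligned with MAFFT 7.526. Scripts were tested on simulated data. Alternatives were thresholds of 3 and 12 rpbp, the mean over 6 rpbp, no filter, log2 values or other pseudocounts, rescaling, GC correction in 20 bins (exon GC known for 97.1% of tested genes), replicate and lane blocks, limma's cosine F-test, and each library or series left out.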

Additional observations from a re-analysis of the deposited data

How the results depend on the processing

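The number of members above the threshold was 16 to 20 at other thresholds and 17 or 18 without 1 library. Serpina6 and Serpina1e were called rhythmic under each scaling and left-out library tried. They kept the call under each filter and block, but these settings test it little. A filter leaves a kept gene's own F24 and unadjusted permutation p unchanged. The blocks cannot lower F24, as each time point holds both replicates and the times run in 2 lanes are 12 hr apart. With the lane block F24 went from 0.626 to 0.832 (Serpina6) and from 0.649 to 0.834 (Serpina1e). Over all genes, 956 of 6284 were rhythmic in the main fit. With no filter 5 members were rhythmic (Serpine2 and Serpinb8 added), beside 2221 of 20756 genes. With limma's cosine F-test 1 was, beside 2.72% of tested genes. Without 1 library 2 to 5 were, the 5 without ZT16 replicate 1, beside 863 of 6211 genes. In 1 series of 6 libraries the number was 0 (replicate 2, beside 160 of 5868 genes) or 2 (replicate 1, Serpina3n and Serpinf2, beside 246 of 5651 genes). Strong rhythms numbered 1 after rescaling (Serpina1e) and 1 after GC correction, 1 to 3 without 1 library, and 0 in the replicate 2 series. Members called by limma's F-test numbered 3 at a threshold of 12 rpbp, 2 with no filter, 3 after GC correction and 2 to 10 without 1 library, the 10 without ZT16 replicate 1 (Serpina1b, Serpina1d, Serpina3k, Serpina3m, Serpina3n and Serpinf1 added, Serpina11 lost). For ZT0 against ZT12 the number was 3 at a threshold of 3 rpbp (Serpina7 and Serpine2 added), 0 with a pseudocount of 0.1 and 0 to 2 without 1 library. With no filter it was 0 for ZT4 against ZT16 and 0 for ZT8 against ZT20. Without 1 library these were 0 to 7 (7 without ZT16 replicate 1, with Serpina1b, Serpina3k, Serpina3m and Serpinf1 added) and 0 to 2. Each called contrast kept its direction under every alternative tried. For strong rhythms, the F-test and the contrasts, the counts of all genes under these alternatives are not given here. Changes in those numbers therefore cannot be called particular to the serpins. The 2 members that the F-test called without a filter were Serpina6 and Serpine2. Serpina1e lost its F-test call there (adjusted p = 0.0561) and its contrast of ZT4 and ZT16 (adjusted p = 0.0970). The F-test call was also lost for Serpina10 (adjusted p = 0.0810), Serpina11 (0.0901) and Serpina12 (0.159). Without a filter more genes entered both the limma fit and the adjustment. The causes of the changes in calls were not tested.

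Replicate numbers mark the 2 independent series of the study, and the main fits held no replicate block. Deviations correlated at -0.117 to 0.320 over 15 pairs, above 0.1 in 5, which does not settle whether libraries of 1 series share an effect. With the replicate block, 3 members were rhythmic, beside 973 of 6284 genes, and 2 were strong. Limma's F-test called 4, Serpina12 being lost at an adjusted p of 0.0515, and the contrasts gave 1, 3 and 1. Apart from the rhythmic calls, the counts of all genes with this block are not given here. The 2 libraries per time point limit the precision of each mean, and groups of 2 are too small to test for an outlying library.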

Other observations

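Serpine2 (protease nexin-1, an inhibitor of thrombin and urokinase), below the 6 rpbp threshold and chosen after its values were seen, had 4.8 and 5.5 rpbp at ZT12, 0.8 and 2.4 at ZT16, 1.0 and 1.1 at ZT20, 0.3 and 0.6 at ZT0, 0.4 and 0.3 at ZT4 and 0.6 and 0.5 at ZT8. Both ZT12 libraries lay above the other 10. With the threshold at 3 rpbp it entered the tests only through the ZT12 libraries, so the values that admitted it also shaped the results. The tests are therefore given as description and not as support for a difference. Limma's F-test gave an adjusted p of 0.0275, and the signal at ZT0 was below that at ZT12 (log2 difference -2.09, SE 0.36, adjusted p = 0.0117). F24 was 0.530 (permutation p = 0.00662, adjusted p = 0.170 at this threshold).

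Some low members, picked for this pattern, had their highest value in ZT8 replicate 1, namely Serpinb6a (2.0 rpbp), Serpina3g (2.7 rpbp) and Serpinb8 (1.0 rpbp). Others were highest elsewhere, among them Serpina1a and Serpinb1a at ZT20, Serpine2 at ZT12, Serpina9 and Serpina3f at ZT16 and Serpinh1 at ZT0. The share of all genes that were highest in ZT8 replicate 1 is not given here. Serpinb9 was at 0.8 rpbp there and in ZT4 replicate 2 and ZT8 replicate 2. In ZT8 replicate 1 the 5 Kupffer cell or macrophage markers summed to 49.7 rpbp and the 5 endothelial markers to 27.7 rpbp, the highest of the 12 libraries, and in ZT8 replicate 2 the same lists summed to 14.7 and 13.6 rpbp, the lowest. The lymphocyte markers were also highest in ZT8 replicate 1 (8.0 rpbp) but not lowest in ZT8 replicate 2 (3.80 rpbp). The stellate cell, cholangiocyte and hepatocyte lists were neither highest in ZT8 replicate 1 nor lowest in ZT8 replicate 2. For the stellate cell list the sums were 10.9 and 11.4 rpbp. The part of these cell types in the low serpin signal was not tested.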
